A study of Mus musculus with 16 samples.

Results

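A set of 10 genes of the chaperone machinery of the endoplasmic reticulum (ER) and of the unfolded protein response (UPR) were examined in CD11b+ cells of the mouse brain. They were Hspa5, Hsp90b1, Pdia4, Pdia6, Dnajb9, Dnajb11, Sdf2l1, Manf, Xbp1, and Herpud1, and their rows were taken from the table by gene name. All 10 were among the 24421 rows of the count table, and all 10 were among the 14565 genes with enough counts to test.

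RNA-Seq libraries came from C57BL/6J mice, stated in the study's methods to be female and 3 weeks old when the diets began, which lasted 1 month. CON mice (n = 4) were fed a standard chow with 20% protein and 15% fat. MAL mice (n = 5) were fed an isocaloric diet with 7% protein and 5% fat. MAL-BG mice (n = 7) were fed the MAL diet and received 3 gavages over 5 days of a mixture of 7 commensal bacteria, E. coli and Bacteroidales, while CON and MAL mice received gavages of PBS over that period. Cells were dissociated from brain and enriched on magnetic beads for CD11b, a surface integrin of microglia and other myeloid cells. The labels name cortical tissue as the source and the methods name whole brains. The comparisons ask how the diet alone, the diet with bacteria, and the bacteria on the same diet relate to these transcripts.

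The ER is where secreted and membrane proteins are folded, and Hspa5 (BiP), the Hsp70 chaperone of its lumen, binds unfolded chains and holds the UPR sensors inactive. When unfolded proteins accumulate, the sensors IRE1 (Ern1), PERK (Eif2ak3), and ATF6 (Atf6) are released. IRE1 splices the mRNA of the transcription factor Xbp1, ATF6 is cut to an active factor, and PERK slows translation while favouring Atf4, which drives Ddit3 and Ppp1r15a. Microglia are secretory, phagocytic cells whose surface receptors pass through this machinery.

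Many ER chaperone genes carry the ER stress response element, which ATF6 and XBP1 are known to use, and its letters are shown because genes that hold them did not all move alike in these data. Windows of 250 bases before to 50 bases after each RefSeq transcript start (GRCm38.p6) were searched on both strands, and 9 of the 10 genes had a window, Manf being the exception. The element ERSE, CCAAT and CCACG with any 9 bases between them, was in 39 of 32851 windows (0.119%), among them those of Hspa5, Pdia6, and Hsp90b1, the last with a pair of sites. The element ERSE-II, ATTGG and CCACG with any 1 base between them, was in 12 windows (0.0365%), among them those of Herpud1 and Dnajb11. The core TGACGTG of the UPR element (UPRE) was in 661 windows (2.01%), and Hspa5 alone of the 10 genes held it. Its letters CGTG are shared with CGTGG, the reverse complement of the CCACG end of ERSE. Each stretch below is printed 5′ to 3′ along the gene's strand, with the matched letters of each element in capitals. The GENCODE start of Hspa5 lies upstream of the RefSeq start, so its ERSE letters fall within the GENCODE transcript. A match is a run of letters, and binding was not measured.
Hspa5 ERSE, chr2:34772020-34772049, + strand, 65 bases before the start: cttcaCCAATcggaggcctCCACGacgggg
Hspa5 UPRE core, chr2:34771922-34771951, + strand, 157 bases before the start: gggcgtagcaaTGACGTGagttgcggagga
Pdia6 ERSE, chr12:17266486-17266515, + strand, 98 bases before the start: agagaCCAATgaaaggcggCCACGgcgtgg
Hsp90b1 ERSE, chr10:86705632-86705661, - strand, 212 bases before the start: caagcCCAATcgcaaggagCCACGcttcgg
Hsp90b1 ERSE in the opposite orientation, chr10:86705527-86705556, - strand, 107 bases before the start: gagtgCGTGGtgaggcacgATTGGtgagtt
Herpud1 ERSE-II, chr8:94386368-94386397, + strand, 52 bases before the start: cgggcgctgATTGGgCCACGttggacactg
Dnajb11 ERSE-II, chr16:22857843-22857872, + strand, 7 bases after the start: ccggcggcgATTGGcCCACGcctggctgct

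Hsp90b1 and Pdia6 had the largest changes of the 10 genes, and the sequence upstream of each is given in full up to the first base that RefSeq or GENCODE annotates as transcribed. Capitals mark ERSE, and the Hsp90b1 stretch holds both of its sites.
Hsp90b1, chr10:86705510-86705694, - strand: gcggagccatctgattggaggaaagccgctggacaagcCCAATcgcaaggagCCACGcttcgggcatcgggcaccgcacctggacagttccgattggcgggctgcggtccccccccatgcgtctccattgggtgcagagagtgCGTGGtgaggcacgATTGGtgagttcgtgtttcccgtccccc
Pdia6, chr12:17266339-17266544, + strand: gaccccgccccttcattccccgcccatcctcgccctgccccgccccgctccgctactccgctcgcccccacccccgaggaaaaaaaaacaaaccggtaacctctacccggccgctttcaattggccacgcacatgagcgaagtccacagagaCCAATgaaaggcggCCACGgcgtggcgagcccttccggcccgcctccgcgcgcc

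Levels are given in CPM, read counts scaled to a common library size after TMM normalization. Library totals were 10312703 to 13461574 counts in CON, 10864121 to 12819982 in MAL, and 14191791 to 18705202 in MAL-BG, and each of the 10 genes had at least 578 counts in every library. A gene was called different when its adjusted p from the quasi-likelihood test of edgeR was under 0.05 and its log2 fold change was beyond 0.58 in either direction. Summed over the 10 genes, these transcripts took 0.277 to 0.377% of counts in CON, 0.320 to 0.402% in MAL, and 0.303 to 0.469% in MAL-BG.

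Markers of several cell types also differed between the groups. The summed level of 10 microglia markers was 16230 to 26590 CPM in CON, 16910 to 29010 CPM in MAL, and 35430 to 48210 CPM in MAL-BG, and none was at 0 in all libraries. Against CON, MAL-BG libraries were called higher in 6 of these 10, in 8 of 9 neutrophil markers, and in 3 of 3 tested T and NK cell markers. The tested ones were Nkg7, Gzma, and Klrb1c, while the T cell genes Cd3e, Cd3d, and Cd3g had too few counts to test. MAL-BG libraries were called lower in 10 of 10 choroid plexus, 7 of 8 neuron, 5 of 6 ependyma, and 4 of 6 astrocyte markers. The other lists were mixed, with 2 of 8 plasma and B cell markers and 3 of 6 oligodendrocyte markers higher, 2 of 6 monocyte markers and 1 of 6 border macrophage markers lower, 2 of 8 endothelial and mural markers higher and 1 lower, and the 1 tested erythroid gene higher. That gene, Alas2, had a mean of only 1.19 CPM in CON and 2.99 CPM in MAL-BG. The other 4 erythroid genes, all haemoglobins, were at 0 in all libraries. The summed choroid plexus level was 13850 to 53750 CPM in CON, 6424 to 42280 CPM in MAL, and 1763 to 16420 CPM in MAL-BG, and the summed neutrophil level was 476.4 to 1221 CPM in CON, 512.2 to 1068 CPM in MAL, and 545.6 to 12170 CPM in MAL-BG, highest in replicate 5. The part of these cells in the results that follow was not tested, and in bulk samples fewer cells of a type and less RNA per cell cannot be told apart.

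Of the 10 genes, Hsp90b1, Pdia6, and Dnajb11 were called higher in MAL-BG than in CON, by 1.90-fold, 1.99-fold, and 1.51-fold, and none was called lower. Against MAL, Hsp90b1 and Pdia6 were called higher, by 1.88-fold and 1.94-fold, and none was called lower. Pdia4 and Manf, a disulfide isomerase and a secreted ER factor, passed the adjusted p in both comparisons with smaller rises. Hspa5 itself did not follow them, and was lower in MAL-BG than in MAL by less than the fold threshold. Xbp1, Dnajb9, Sdf2l1, and Herpud1 did not pass the test in any comparison.

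The 3 of 10 genes called higher against CON compare with 11.4% of all genes called higher and 21.7% called lower, and the 2 of 10 against MAL with 10.2% called higher and 20.2% called lower. Without the fold threshold, 5 of 10 were higher and none was lower against CON, where 19.8% and 25.2% of all genes were. Against MAL, 5 of 10 were higher and 1 was lower, where 20.2% and 24.1% of all genes were. The median log2 fold change of the 10 genes was 0.46 against CON and 0.42 against MAL, beside medians of -0.04 and -0.03 over all genes tested. Both comparisons use the same 7 MAL-BG libraries. The count against CON was 5 without CON replicate 1, without MAL-BG replicate 2, or without MAL-BG replicate 4, and 2 without CON replicate 4. The count against MAL was 4 without MAL replicate 2 or without MAL-BG replicate 2, and the counts were 3 and 2 without MAL-BG replicate 5. Calls over all genes moved as well. Against CON they were 4820 (34.4% of them higher) with all libraries, 5418 (36.7%) without CON replicate 1, and 4157 (33.7%) without CON replicate 4. Without MAL-BG replicate 2 they were 4540 (40%), and without MAL-BG replicate 4 they were 4644 (41.1%). Against MAL they were 4423 (33.4%) with all libraries, 3948 (33.9%) without MAL replicate 2, and 4082 (38.3%) without MAL-BG replicate 2.

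These directions are relative to the whole library. When library sizes were set instead to the summed counts of the 10 microglia markers, an alternative chosen after seeing the data, the median of all genes moved to -1.11 against CON and -1 against MAL. On that scale 0 of the 10 genes were called higher and 5 were called lower in each comparison (Hspa5, Pdia4, Dnajb9, Xbp1, and Herpud1). Lower calls were the rule on that scale. Of all 14565 genes, 11337 were called against CON and 10726 against MAL, and only 0.362% and 0.373% of these calls were higher. Hsp90b1 and Pdia6 were at -0.13 and -0.06 against CON on that scale. A change of library sizes shifts all genes nearly alike, so the place of a gene relative to the median gene was close to fixed in advance.

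**Figure D1:**
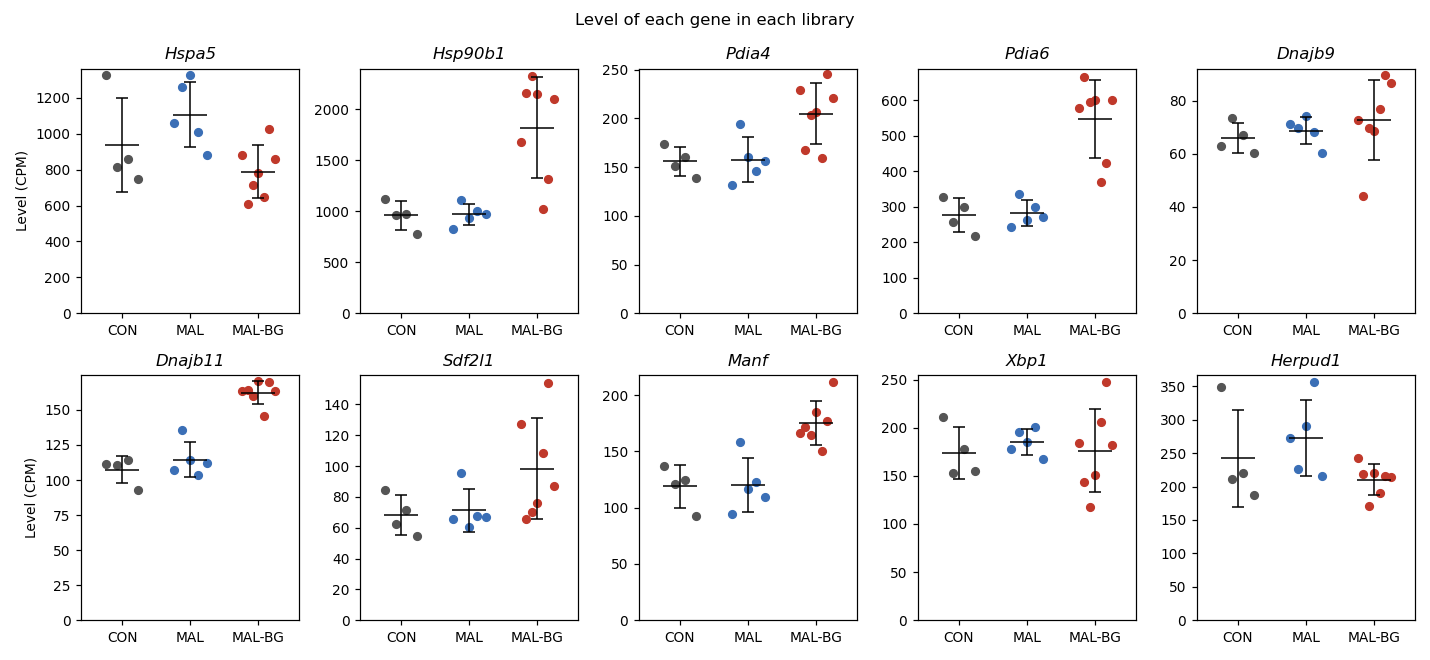
Level in CPM (vertical axes, each from 0) of the 10 genes in CON, MAL, and MAL-BG libraries, with 1 point per library and bars for the mean ± SD. All 7 MAL-BG points lie above the CON and MAL points for Pdia6 and Dnajb11, while for Hspa5, Xbp1, Dnajb9, and Herpud1 the groups overlap.

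Hspa5 (chr2:34771970-34777547, + strand, GENCODE M21 on GRCm38.p6 as for all genes here) is the main Hsp70 chaperone of the ER. Its level was 1327, 814, 859, and 749.6 CPM in the 4 CON libraries and 1059, 1259, 1325, 1009, and 881 CPM in the 5 MAL libraries. In MAL-BG it ran from 609.7 to 1028 CPM with a median of 782 CPM. The CON library at 1327 CPM stood above the other 3, the groups overlapped, and 5 of 7 MAL-BG libraries were below all MAL libraries. Its log2 fold change was -0.25 against CON (SE 0.177, edgeR adjusted p = 0.268) and -0.49 against MAL (SE 0.166, edgeR adjusted p = 0.0248).

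Hsp90b1 (GRP94, chr10:86690209-86705509, - strand) is the Hsp90 of the ER, known for folding integrins and Toll-like receptors. Its level was 1116, 967, 973, and 778 CPM in CON and 823, 1112, 936, 998, and 972 CPM in MAL. MAL-BG levels of Hsp90b1 ran from 1023 to 2319.8 CPM with a median of 2100.0 CPM. In 6 of 7 MAL-BG libraries the level was above every CON and MAL library, and replicate 5, the lowest, lay within their range. The log2 fold change was 0.92 against CON (SE 0.202, edgeR adjusted p = 0.00168) and 0.91 against MAL (SE 0.187, edgeR adjusted p = 0.00113). Exons of Hsp90b1 share 415 bases with 1810014B01Rik on the opposite strand. On the same strand they share 133 bases with Gm25745 and 84 bases with Gm15344, so the split of reads at all these bases is uncertain.

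Per kilobase of exon, Hspa5 and Hsp90b1 were at 222 ± 62.4 and 238 ± 34.4 CPM per kb in CON (mean ± SD, n = 4), and these levels did not differ beyond their spread. In MAL they were at 262 ± 43.2 and 240.1 ± 25.9 CPM per kb (n = 5), again within their spread. In MAL-BG they were at 187 ± 34.7 and 451 ± 122 CPM per kb (n = 7). Herpud1, the third highest of the 10 on this scale in CON and MAL, was at 104 ± 31.1, 117 ± 24.4, and 90.3 ± 9.997 CPM per kb, and was passed in MAL-BG by Pdia6 at 146 ± 29.0 CPM per kb. In CON the others followed as Pdia6 (73.6 ± 12.8), Pdia4 (65.0 ± 6.11), Sdf2l1 (61.6 ± 11.7), Xbp1 (53.5 ± 8.30), Manf (33.7 ± 5.36), Dnajb11 (33.2 ± 3.03), and Dnajb9 (25.9 ± 2.22 CPM per kb). In that order the ranges of mean ± SD overlapped between neighbours from Pdia6 through Pdia4 and Sdf2l1 to Xbp1, and between Manf and Dnajb11. The genes were measured in the same libraries, and differences between genes within a library were not tested.

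Pdia6 and Pdia4 are protein disulfide isomerases, which form and rearrange disulfide bonds in folding proteins. Pdia6 (chr12:17266545-17284770, + strand) was at 328, 259, 298, and 218 CPM in CON and 242, 336, 263, 299.8, and 271 CPM in MAL. Across MAL-BG libraries Pdia6 ran from 369 to 667 CPM with a median of 595 CPM. Every MAL-BG library was above every CON and MAL library. Its log2 fold change was 0.99 against CON (SE 0.168, edgeR adjusted p = 0.000271) and 0.96 against MAL (SE 0.155, edgeR adjusted p = 0.000203).

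Pdia4 (chr6:47796141-47813430, - strand) was at 174, 151, 160.1, and 139 CPM in CON and 132, 195, 160.0, 146, and 156 CPM in MAL. In MAL-BG it ran from 159.6 to 245 CPM with a median of 206 CPM, and 5 of 7 libraries were above all of CON, while 5 of 7 were above all of MAL. The rise was 0.39 on the log2 scale against CON (SE 0.132, edgeR adjusted p = 0.0238) and 0.38 against MAL (SE 0.123, edgeR adjusted p = 0.0205), under the fold threshold in both.

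Dnajb11, Dnajb9, and Sdf2l1 work with BiP: Dnajb11 (ERdj3) and Dnajb9 (ERdj4) are J-domain cochaperones that hand it clients, and Sdf2l1 is a lumenal partner of Dnajb11. Dnajb11 (chr16:22857845-22879634, + strand) was at 111.4, 110.8, 115, and 92.9 CPM in CON and 107, 135, 114, 104, and 112 CPM in MAL. In MAL-BG it ran from 145 to 171 CPM with a median of 163 CPM. Every MAL-BG library was above every other library, and Pdia6 and Dnajb11 were the 2 of 10 genes of which this held, beside 6.17% of all genes tested, while none lay below every other library, as 6.36% did. The log2 fold change was 0.60 against CON (SE 0.0940, edgeR adjusted p = 0.000167) and 0.50 against MAL (SE 0.0869, edgeR adjusted p = 0.000328). The call against CON sat at the fold threshold and ended without CON replicate 4, at 0.52, and when gene length and GC content were corrected for, at 0.45.

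Dnajb9 (chr12:44205559-44210326, - strand) was at 63.1, 73.5, 66.9, and 60.4 CPM in CON and 71.3, 69.6, 74.2, 68.3, and 60.3 CPM in MAL. The MAL-BG level ran from 44.3 to 89.8 CPM with a median of 72.6 CPM, so the MAL-BG range enclosed those of both other groups. Its log2 fold change was 0.14 against CON (95% confidence interval -0.17 to 0.45, edgeR adjusted p = 0.452) and 0.08 against MAL (-0.20 to 0.36, edgeR adjusted p = 0.650).

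Sdf2l1 (chr16:17130138-17132383, - strand) was at 84.8, 62.6, 71.2, and 54.4 CPM in CON and 65.4, 95.5, 60.7, 67.4, and 67.0 CPM in MAL. The 7 MAL-BG values ran from 65.4 to 154 CPM with a median of 87.3 CPM, the widest relative spread of the 10 genes in that group (SD 33.0 on a mean of 98.4 CPM). The highest 3 MAL-BG values, 154, 127, and 109 CPM, were in replicates 6, 1, and 5. The same replicates had the lowest 3 values of Hsp90b1, 1315, 1676, and 1023 CPM. The log2 fold change of Sdf2l1 was 0.53 against CON (SE 0.220, edgeR adjusted p = 0.0602) and 0.47 against MAL (SE 0.204, edgeR adjusted p = 0.0725), and neither passed.

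Manf (chr9:106838312-106891979, - strand) encodes a small ER protein that binds BiP and is secreted as a trophic factor. It was at 137, 121, 124, and 92.6 CPM in CON and 94.2, 158, 117, 123, and 109 CPM in MAL. MAL-BG levels of Manf ran from 151 to 212 CPM with a median of 172 CPM, so all 7 libraries were above all of CON and 6 of 7 were above all of MAL. The rise was 0.56 on the log2 scale against CON (SE 0.140, edgeR adjusted p = 0.00408) and 0.55 against MAL (SE 0.130, edgeR adjusted p = 0.00310), just under the fold threshold. Its exons share 166 bases with 4930524O07Rik and 146 bases with Dcaf1 on the opposite strand, and 14 bases with Rbm15b on the same strand.

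Xbp1 (chr11:5520659-5525893, + strand) encodes the transcription factor made from the mRNA that IRE1 splices, and a count per gene does not tell spliced from unspliced mRNA. Its level was 211, 153, 177, and 155 CPM in CON and 178, 195, 185, 200.5, and 167 CPM in MAL. Across MAL-BG mice it ran from 118 to 248 CPM with a median of 182 CPM, and this range enclosed all other libraries. The log2 fold change was 0.02 against CON (-0.33 to 0.36, edgeR adjusted p = 0.936) and -0.07 against MAL (-0.39 to 0.25, edgeR adjusted p = 0.718).

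Herpud1 (chr8:94386438-94395377, + strand) is a membrane protein of ER-associated degradation (ERAD), the route by which misfolded proteins are sent to the proteasome. It was at 349, 211, 221, and 187 CPM in CON and 272, 226, 290.3, 357, and 215 CPM in MAL. The MAL-BG libraries ran from 171 to 243 CPM with a median of 216 CPM. The highest values, 349 CPM in CON and 357 CPM in MAL, each came from 1 library, and the groups overlapped. Its log2 fold change was -0.20 against CON (SE 0.167, edgeR adjusted p = 0.340) and -0.37 against MAL (SE 0.156, edgeR adjusted p = 0.0629).

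**Figure D2:**
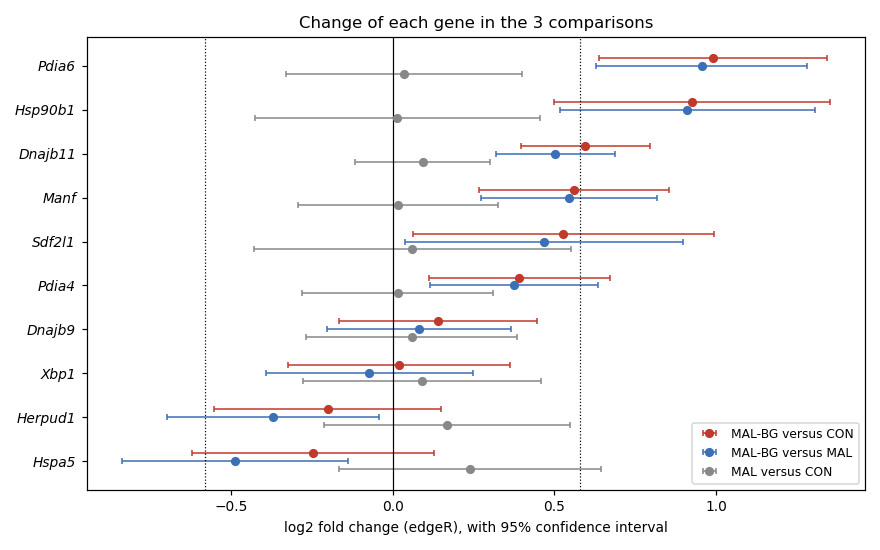
Log2 fold change from edgeR (horizontal axis) with its 95% confidence interval for each of the 10 genes in the 3 comparisons, with dotted lines at the fold threshold of 0.58. Pdia6 and Hsp90b1 lie to the right of it in both MAL-BG comparisons, Hspa5 and Herpud1 lie to the left of 0, and the intervals of MAL versus CON cross 0 for all 10 genes.

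The diet alone moved none of the 10 genes past the test. In MAL against CON, all 10 log2 fold changes were positive, from 0.01 to 0.24, with Hspa5 the highest at 0.24 (-0.17 to 0.64). None of the 10 had an unadjusted p under 0.05, beside 212 of 14565 genes (1.46%). No gene of the table passed the adjusted p of edgeR in this comparison (0% called), where the smallest adjusted p was 0.999, and DESeq2 also called none. The sign was not stable, since without CON replicate 4 or without MAL replicate 2 the values of Hsp90b1, Pdia6, Manf, Sdf2l1, and Pdia4 were below 0.

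Because ratios of genes within a library do not depend on library scaling, each gene was also set against Hspa5 in its own library, a description chosen after the values were seen and given without a test. Hspa5 itself was at -0.25 against CON, which did not pass, and at -0.49 against MAL, and a lower Hspa5 raises each ratio. The share of all genes that would separate on this ratio was not tested. Hsp90b1 had a median of 108.5 counts per 100 counts of Hspa5 in CON, against 88.3 in MAL and 244 in MAL-BG, and the MAL-BG libraries (128 to 353) did not overlap the others (70.7 to 119). Pdia6 had medians of 30.4, 26.7, and 69.7 counts per 100, with no overlap of MAL-BG (41.1 to 109.5). Dnajb11, at 12.9, 10.3, and 21.8, Manf, at 13.4, 12.2, and 23.3, and Sdf2l1, at 7.48, 6.67, and 10.7, likewise did not overlap. The CPM levels of Sdf2l1 did overlap between the groups, and its change did not pass the test. Pdia4 varied little within MAL-BG on this measure, from 23.9 to 28.5 counts per 100, and lay above CON (13.1 to 18.6) and MAL (12.1 to 17.7). Xbp1 had medians of 19.7, 16.8, and 21.2 counts per 100, and Herpud1 of 25.8, 24.4, and 27.5, and for both MAL-BG overlapped CON and MAL. Dnajb9 had medians of 7.93, 6.73, and 8.77, and its MAL-BG libraries (7.26 to 11.9) overlapped CON (4.76 to 9.03) and lay above MAL (5.53 to 6.84). In the 4 CON libraries Herpud1 kept to 25.01 to 26.31 counts per 100 of Hspa5, and both genes were highest in the same CON library. The Herpud1 ratio ranged more widely in MAL, from 17.95 to 35.37, and in MAL-BG, from 21.01 to 35.88.

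**Figure D3:**
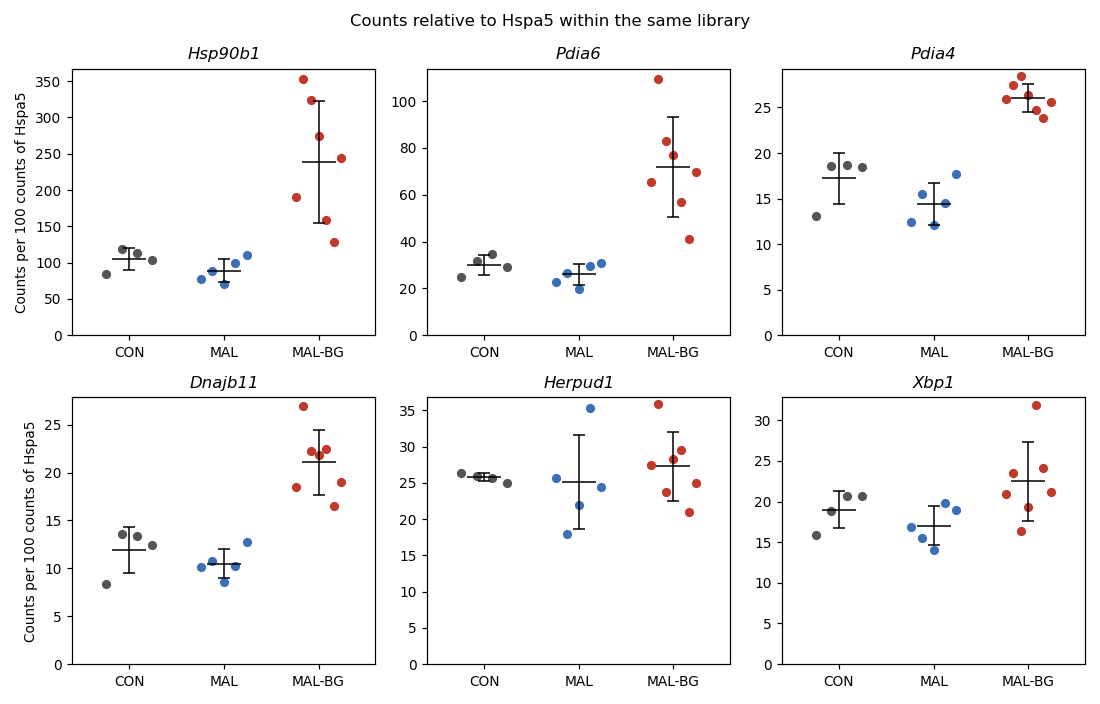
Counts of 6 genes per 100 counts of Hspa5 in the same library (vertical axes, each from 0) in CON, MAL, and MAL-BG, with 1 point per library and bars for the mean ± SD. MAL-BG libraries lie above all others for Hsp90b1, Pdia6, Pdia4, and Dnajb11, and overlap them for Herpud1 and Xbp1.

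Among the sensors, transcripts did not move in 1 direction. Eif2ak3, the kinase PERK, was at 36.4 ± 7.16 CPM in CON, 41.2 ± 3.70 CPM in MAL, and 58.5 ± 5.64 CPM in MAL-BG, where every library was above all others (log2 fold change 0.69 against CON, edgeR adjusted p = 0.000388). Atf6b, a relative of Atf6, was also above all others in every MAL-BG library, at 132 ± 16.1 CPM against 84.0 ± 13.1 CPM in CON (0.65, edgeR adjusted p = 0.000392). Atf6 itself was at 73.0 ± 1.68 CPM in CON and 85.6 ± 10.3 CPM in MAL-BG (0.23, edgeR adjusted p = 0.0744) and did not pass. Ern1, which encodes IRE1, was called lower.

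Ern1 was at 16.2, 17.3, 18.7, and 19.5 CPM in CON and 22.6, 15.96, 19.1, 11.6, and 19.2 CPM in MAL. In MAL-BG it ran from 2.07 to 16.2 CPM with a median of 2.83 CPM. In 6 of 7 MAL-BG libraries it was below all others, and replicate 6, at 16.2 CPM, lay within their range. The highest 3 MAL-BG values were in replicates 6, 5, and 1, those in which Sdf2l1 was also highest. The log2 fold change was -1.53 against CON (SE 0.456, edgeR adjusted p = 0.0121) and -1.51 against MAL (SE 0.434, edgeR adjusted p = 0.0101). Of all 6 sensor genes, 3 were called higher and 1 lower against CON, beside 11.4% and 21.7% of all genes. Against MAL 1 was called higher and 1 lower, beside 10.2% and 20.2% of all genes.

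In the PERK branch, 1 of 9 genes was called higher and 2 lower against CON, with a median of 0.15, counts near the shares over all genes (11.4% higher and 21.7% lower). Atf4, its central factor, was at 282 ± 57.1 CPM in CON, 313 ± 104 CPM in MAL, and 333 ± 80.3 CPM in MAL-BG (0.24 against CON, edgeR adjusted p = 0.366). Ppp1r15a (GADD34), which restores translation, was at 427 ± 144 CPM in CON, 520.1 ± 179 CPM in MAL, and 118 ± 49.6 CPM in MAL-BG, and every MAL-BG library was below all others. Its log2 fold change was -1.86 against CON (SE 0.290, edgeR adjusted p = 0.000150) and -2.14 against MAL (SE 0.278, edgeR adjusted p = 4.14e-05). Ddit3 (CHOP), a factor linked to cell death under ER stress, was at 54.4 ± 19.96 CPM in CON, 59.2 ± 21.7 CPM in MAL, and 31.1 ± 4.11 CPM in MAL-BG, again with every MAL-BG library lowest (-0.81 against CON, edgeR adjusted p = 0.00687, and -0.93 against MAL, edgeR adjusted p = 0.00195). The annotation carries a further entry named Ddit3 with shared exon bases, so its counts may be split.

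Chac1, a glutathione-degrading enzyme under Atf4 and Ddit3, was called higher against CON, but from very few counts. It had 1 to 3 counts in CON libraries, 5 to 11 in MAL libraries, and 4 to 24 in MAL-BG libraries. No CON library exceeded the count of 10 that the filter requires, so Chac1 was tested only because of libraries in the other groups. It was the 1 PERK branch gene called higher. The ratio of summed counts, scaled to library size, was 5 for MAL-BG to CON (95% counting interval 2.43 to 11.9) and 3.72 for MAL to CON (1.71 to 9.26), intervals that cover counting error only. Against MAL it did not pass (0.40, edgeR adjusted p = 0.491).

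More of the other ER genes were called higher than lower in MAL-BG. Over the 90 further ER genes listed, sensors and PERK branch included, 23 were called higher and 3 lower against CON, beside the 11.4% and 21.7% of all genes given above, with a median log2 fold change of 0.31. Against MAL 22 were called higher and 3 lower, with a median of 0.34, and in MAL against CON none was called and 1 had an unadjusted p under 0.05. With libraries scaled to the microglia markers, 0 were called higher and 58 and 53 lower, on a scale where the median gene fell by 1.11 and 1. On that scale 11337 and 10726 of all 14565 genes were called, nearly all of them lower.

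Of 26 other folding factors, 6 were called higher and none lower against CON, with a median of 0.40. The largest rise was that of Pdia5, a low-level disulfide isomerase, at 8.31 ± 1.48 CPM in CON, 8.95 ± 1.39 CPM in MAL, and 20.3 ± 3.36 CPM in MAL-BG (1.28, edgeR adjusted p = 5.43e-05). Tor1a, the ATPase torsin of the ER and nuclear envelope, was at 32.0 ± 6.67 CPM in CON and 65.2 ± 10.3 CPM in MAL-BG (1.03, edgeR adjusted p = 0.000168). Of 20 ERAD genes, 5 were called higher and none lower, with a median of 0.36. Edem2, which trims mannose from misfolded glycoproteins, was at 128 ± 21.01 CPM in CON and 263 ± 48.7 CPM in MAL-BG (1.04, edgeR adjusted p = 0.000166). Derl1, a channel component of ERAD, was at 169 ± 21.3 CPM in CON and 332 ± 40.3 CPM in MAL-BG (0.97, edgeR adjusted p = 2.92e-05).

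Genes for entry into the ER, the translocon and the signal peptidase among them, had the highest median of the lists, 0.54, with 8 of 17 called higher and none lower against CON. Spcs2, a signal peptidase subunit, was at 139 ± 12.9 CPM in CON, 138 ± 11.6 CPM in MAL, and 279 ± 34.7 CPM in MAL-BG (1.0, edgeR adjusted p = 1.23e-05). Sec11a, the catalytic subunit, was at 50.7 ± 5.73 CPM in CON, 52.6 ± 5.72 CPM in MAL, and 101 ± 16.8 CPM in MAL-BG (0.99, edgeR adjusted p = 5.66e-05), and its exons share 163 bases with Nmb on the same strand. In Spcs2, Sec11a, Edem2, Derl1, and Pdia5 every MAL-BG library was above all CON and all MAL libraries, as in 6.17% of all genes tested. These genes were named for the largest rises of their lists, a choice that favours such separation. In Tor1a, named by the same rule, 6 of 7 MAL-BG libraries were above all MAL libraries. COPII genes, whose coat carries cargo out of the ER, had a median of -0.06, and none of 12 was called in either direction, while 2 were higher and 1 was lower at the adjusted p of edgeR with changes under the fold threshold. These were Sar1a (0.38, edgeR adjusted p = 0.00126) and Sec23b (0.30, edgeR adjusted p = 0.0192), both with every MAL-BG library above all others, and Sec16a (-0.35, edgeR adjusted p = 0.0455), which were named after their values were seen.

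**Figure D4:**
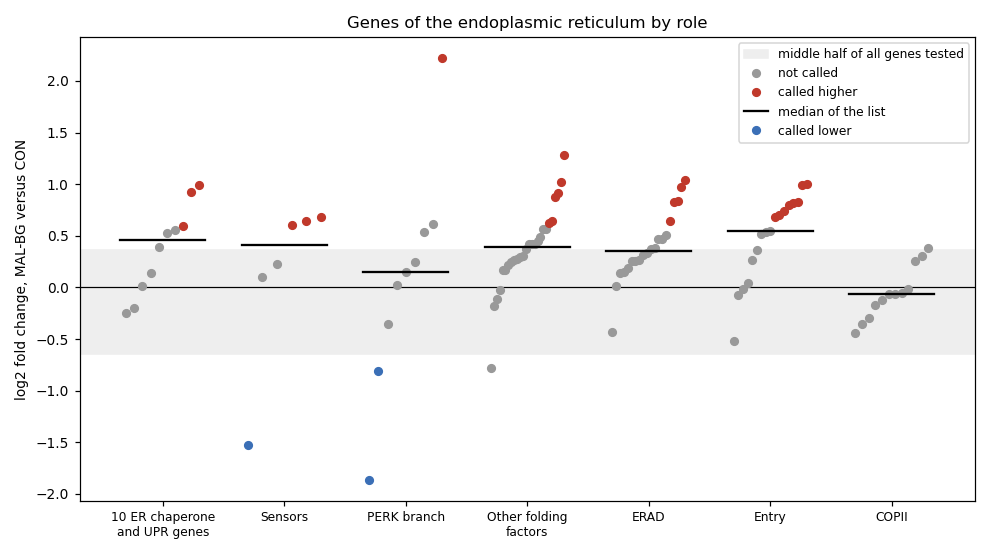
Log2 fold change of MAL-BG against CON (vertical axis) for the 10 ER chaperone and UPR genes and for 90 further genes in 6 lists, with 1 point per gene, red where called higher, blue where called lower, and black lines for medians. The grey band spans the quartiles of all 14565 genes, from -0.64 to 0.36, and the entry list has the highest median while the COPII list lies near 0.

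The genes with ERSE letters in their window were spread over these outcomes. Among the 100 genes described, 86 had a window, and 10 of these held ERSE: the chaperones Hspa5 and Hsp90b1, Pdia6, the lectin chaperones Calr and Canx, Creld2, Dnajc3, Ero1b, and the ERAD genes Derl3 and Syvn1. Hsp90b1, Pdia6, Canx, and Creld2 were called higher in both MAL-BG comparisons, beside 11.4% of all genes against CON and 10.2% against MAL. Of the 90 further ER genes listed, with or without these letters, 23 and 22 were called higher. Canx was at 580.2 ± 32.2 CPM in CON and 893 ± 92.4 CPM in MAL-BG (0.62 against CON, edgeR adjusted p = 0.000258), and Creld2 at 41.8 ± 9.48 and 78.9 ± 15.4 CPM (0.91, edgeR adjusted p = 0.000808). Calr passed the adjusted p with 0.42 against CON (edgeR adjusted p = 0.0158). Dnajc3, at 0.02, Derl3, at 0.02, Ero1b, at 0.22, and Syvn1, at 0.38, did not pass, and Hspa5, with the ERSE and UPRE letters printed above, was at -0.25. Of the genes with ERSE-II letters, Dnajb11 was called higher against CON and Herpud1 was not called. The UPRE core was also in the windows of 9 further ER genes, and none of these was called against CON or MAL. Canx and Creld2 were named here after their values were seen.

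For Hspa5 and Xbp1, the genes outside all lists whose pattern over the 16 libraries was closest were found by the root mean square (RMS) difference of centred log2 CPM among 5812 genes with a mean log2 CPM of at least 5. For Hspa5 these were Zkscan3 (0.186), Ltn1 (0.189), and Zmym2 (0.199), where the median gene differed by 0.449. Ltn1 is the ubiquitin ligase of stalled ribosomes. For Xbp1 they were Narf (0.100), Nfkb1 (0.101), and Crlf3 (0.109), where the median gene differed by 0.365. Nfkb1 encodes a subunit of NF-kB.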

How the data were processed

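RNA-Seq of CD11b+ cells from 16 mice was analysed, 1 library per mouse. The authors prepared stranded poly(A) libraries, aligned reads to GRCm38.p6 with STAR, and deposited HTSeq counts per gene that were not normalized. The strand setting and annotation of the counting are not given in the sources used here. Groups were read from column names, whose running numbers match no sample title. The authors' DESeq2 design held a batch term, but no source used here gives the batch of a library, so every fit here is without it, and the part of batch in the results was not tested. Of 24421 rows, 27 carry date-like names.

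The filter left 14565 genes, those whose count exceeded 10 in 4 or more libraries. The 3 groups were fitted together with TMM scaling and the quasi-likelihood test of edgeR 4.0.16 in R 4.3.3, with Benjamini-Hochberg adjustment over all genes. The p-values measure the spread between these libraries. Replicates of a group all differed by more than counting noise (lowest chi-square over its degrees of freedom 9.80, 37 pairs). In counts simulated for MAL-BG versus CON (14565 genes, 200 changed by 1.5 on the log2 scale), 148 of the 200 and 5 others were called. The recovery of smaller changes, such as those of the 10 genes at up to 0.99 in that comparison, was not tested. Log2 CPM used a prior count of 2. Gene coordinates and exon lengths were those of GENCODE M21, and promoter windows those of RefSeq. Alternatives were DESeq2 1.42.0, other scalings, filters, and offsets, thinned counts, and leaving out each library.

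The 10 genes, the ER lists, and the marker lists were chosen with earlier results of these data known. Genes named were the 10, Ern1, Eif2ak3, Atf6, Atf4, and Ddit3, up to 2 rises and 2 falls per ER list among genes called against CON, and the 3 closest to Hspa5 and Xbp1.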

Additional observations from a re-analysis of the deposited data

Results flagged for a closer look

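In MAL, Sdf2l1 was at 95.48 CPM in replicate 2 and at most 67.37 CPM in the other 4 libraries, a gap of 0.807 of the group's range. It was the 1 of 30 groups of libraries examined, 10 genes in 3 groups, that was flagged for an outlying library, and chance gives about 1 in 20. The gap was not the largest for its range. Dnajb11 in CON replicate 4, at 92.9 CPM, and Hspa5 in CON replicate 1, at 1327 CPM, had larger gaps by this measure and were not flagged.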

How the results depend on the processing

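No paired analysis was possible because the columns carry running numbers that match no sample title, so no number links a library of 1 group to a library of another. With no fold threshold, 5 and 6 of the 10 genes and 50 and 53 of the 90 further genes were called against CON and MAL. With length and GC offsets (known for 14023 genes) and mean log2 CPM scaling, 4 of the 10 were called against MAL and 47 and 45 of the 90. Of all 14023 genes, 5672 were called against CON and 5237 against MAL. The share of calls that were higher was then 61.6% in both comparisons, beside 34.4% and 33.4%, and the median gene moved to 0.25 and 0.24. With scaling to the microglia markers, an alternative added later, 5 and 5 of the 10 and 58 and 53 of the 90 were called, all lower. With that scaling 11337 and 10726 of all 14565 genes were called. On that scale values below 0 replaced positive ones for Dnajb11 (-0.47 against CON, -0.50 against MAL), Dnajb9 (-0.94, -0.91), Hsp90b1 (-0.13, -0.086), Manf (-0.49, -0.46), Pdia4 (-0.67, -0.64), Pdia6 (-0.061, -0.041), Sdf2l1 (-0.51, -0.53), and Xbp1 (-1.03 against CON), and in MAL against CON for Dnajb9 (-0.031), Hsp90b1 (-0.046), Manf (-0.036), Pdia4 (-0.039), and Pdia6 (-0.020). With offsets alone Dnajb9 was at -0.14 and -0.16, Xbp1 at -0.10 against CON, and Hsp90b1 at -0.037 in MAL against CON, or -0.022 with mean scaling. Xbp1 was at -0.00078 against CON with upper-quartile scaling and at 0.080 against MAL with offsets and mean scaling, and Pdia4 at -0.0048 in MAL against CON with thinned counts. The Dnajb11 call against CON also ended with upper-quartile scaling (0.58) and thinned counts (0.55). The cause of these shifts was not tested.

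Leaving out 1 library at a time gave 2 to 5 and 2 to 4 of the 10 genes and 23 to 33 and 23 to 29 of the 90 against CON and MAL, and 0 in MAL against CON. Over all genes tested it gave 4048 to 5418 calls against CON and 3809 to 4877 against MAL. Ranges that crossed 0 were Herpud1 -0.31 to 0.012 and Xbp1 -0.083 to 0.12 against CON, Xbp1 -0.17 to 0.027 against MAL, and, in MAL against CON, Hsp90b1 -0.074 to 0.088, Manf -0.11 to 0.088, Pdia4 -0.075 to 0.071, Pdia6 -0.063 to 0.12, and Sdf2l1 -0.072 to 0.17.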
